A study of Mus musculus with 5 samples.

Results

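The 10 receptor genes described here raise or restrain signalling through the T cell receptor and were followed in mature CD8 single-positive thymocytes of mice, the last thymic stage of cells that will become CD8 T cells. They were chosen by symbol and comprised 3 costimulatory genes (Cd28, Icos, Cd2), 5 inhibitory genes (Ctla4, Pdcd1, Btla, Lag3, Tigit) and 2 genes whose products tune the receptor signal itself (Cd5, Cd6). All 10 were among the 35976 genes counted, and all 10 passed the low-count filter that left 13666 genes for testing. The cells were sorted by flow cytometry from the thymus of wild-type mice (genotype Runx3 +/+, 2 libraries) and of mice with a single copy of an allele called WRPW beside a wild-type copy (genotype Runx3 +/WRPW, 3 libraries), and total RNA was sequenced in bulk. The labels used here give no age, sex, strain or treatment of the mice, do not say what the WRPW allele changes in the protein, and do not say whether the libraries of a genotype came from different animals. The p-values therefore measure the spread between these libraries, and part of it may be technical.

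As background, a T cell responds fully when its antigen receptor and a costimulatory receptor are engaged together. CD28 is the main costimulatory receptor of naive T cells and binds CD80 and CD86 on antigen-presenting cells, ICOS is its inducible relative, and CD2 is an adhesion receptor that binds CD48 in mice. CTLA-4 competes with CD28 for CD80 and CD86, PD-1 (Pdcd1) and BTLA recruit phosphatases, LAG-3 binds MHC class II, and TIGIT binds the poliovirus receptor CD155. CD5 damps receptor signals in thymocytes, and its level is widely read as a measure of the strength of self-recognition; CD6 is its close relative. Runx3 is the Runt-domain transcription factor of the CD8 lineage, and the WRPW peptide is a tetrapeptide by which Hes proteins bind Groucho/TLE corepressors.

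Library totals ran from 15715242 to 43758550 counts. Runx3 +/WRPW library 2 stood apart, with counts at 27414 genes against 17237 to 18967 in the others. Of the 14743 genes at 0 in the other 4 libraries, 7350 had a count in it, at a median of 0.308 CPM (counts per 1000000 counts of the library, scaled by edgeR's TMM factors) and a 95th percentile of 2.4 CPM. The labelled cell type was checked by its coreceptors. Cd8a was at 2201 to 2634 CPM in every library, and Cd4 was at no more than 5.35 CPM. Cd8b1 was at 784 and 1278 CPM in Runx3 +/+ and at 765, 823 and 782 CPM in Runx3 +/WRPW. Of the 4 CD8 T cell markers tested, Cd3d was lower in Runx3 +/WRPW (edgeR adjusted p = 0.039), beside 7.33% lower of all genes tested. Cd8a, Cd8b1 and Cd3e did not pass. The median log2 fold change of the 4 (Runx3 +/WRPW over Runx3 +/+) was -0.28. Runx3 itself, at 273 and 357 CPM in Runx3 +/+ and at 394, 337 and 422 CPM in Runx3 +/WRPW, did not pass the test (edgeR adjusted p = 0.234), and the 2 alleles are not separated in these counts. In bulk RNA, fewer cells of a type and less RNA per cell cannot be told apart.

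The stretches upstream of Ctla4 and Tigit are shown because these are the inhibitory genes called in opposite directions. They are the 250 bases before the transcript start in RefSeq's promoter table (GRCm38.p6, the assembly of mm10), read along the strand of the gene; the start used for Tigit lies inside the outer bounds of the gene. Capitals mark the Runx core motif TGTGGT or, on the other strand, ACCACA. Ctla4 lies on the plus strand (chr1:60908775-60909024) and Tigit on the minus strand (chr16:43664185-43664434).
Ctla4: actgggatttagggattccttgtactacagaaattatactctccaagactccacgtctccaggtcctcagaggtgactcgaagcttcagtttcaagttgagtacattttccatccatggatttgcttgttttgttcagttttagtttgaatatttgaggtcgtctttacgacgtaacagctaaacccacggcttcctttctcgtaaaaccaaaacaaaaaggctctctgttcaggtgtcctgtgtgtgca
Tigit: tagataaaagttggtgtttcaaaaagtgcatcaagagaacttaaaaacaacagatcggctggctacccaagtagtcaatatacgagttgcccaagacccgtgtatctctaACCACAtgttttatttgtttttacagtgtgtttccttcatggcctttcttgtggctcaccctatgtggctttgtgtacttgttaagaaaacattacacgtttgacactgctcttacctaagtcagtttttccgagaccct
Promoters of 5 of the 10 genes (Ctla4, Pdcd1, Btla, Tigit, Cd5) were matched by symbol. The motif was found in 2 of them, starting 140 bases before the start in Tigit and 178 bases before it in Btla, each time on the other strand. As for Tigit, the starts used for Btla and Cd5 lie inside the outer bounds of those genes. The Btla stretch (chr16:45224087-45224336) lies wholly inside those bounds. Of all 32851 promoter stretches of that length, 14.05% hold it on either strand. A match describes these letters only, and the stretch of Ctla4, Pdcd1 or Cd5 without a match says nothing of Runx3 elsewhere at those genes.

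Among the 10 genes, Cd28 and Tigit were higher and Ctla4 was lower in Runx3 +/WRPW, and the other 7 did not pass the test. The 3 that passed at an adjusted p under 0.05 (edgeR's quasi-likelihood test, adjusted over all 13666 genes) stand beside 13.6% of all genes tested, or 6.24% higher and 7.33% lower. The costimulatory class had 1 higher gene of 3, the inhibitory class 1 higher and 1 lower of 5, and the modulating pair neither of 2. With so few genes these counts do not set the receptors apart from the rest of the transcriptome. The CPM of the genotypes did not overlap for 7 of the 10 genes, against 48.3% of all genes tested. The median log2 fold change (Runx3 +/WRPW over Runx3 +/+) was 0.01 over the 10 genes and 0.02 over all genes.

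**Figure D1:**
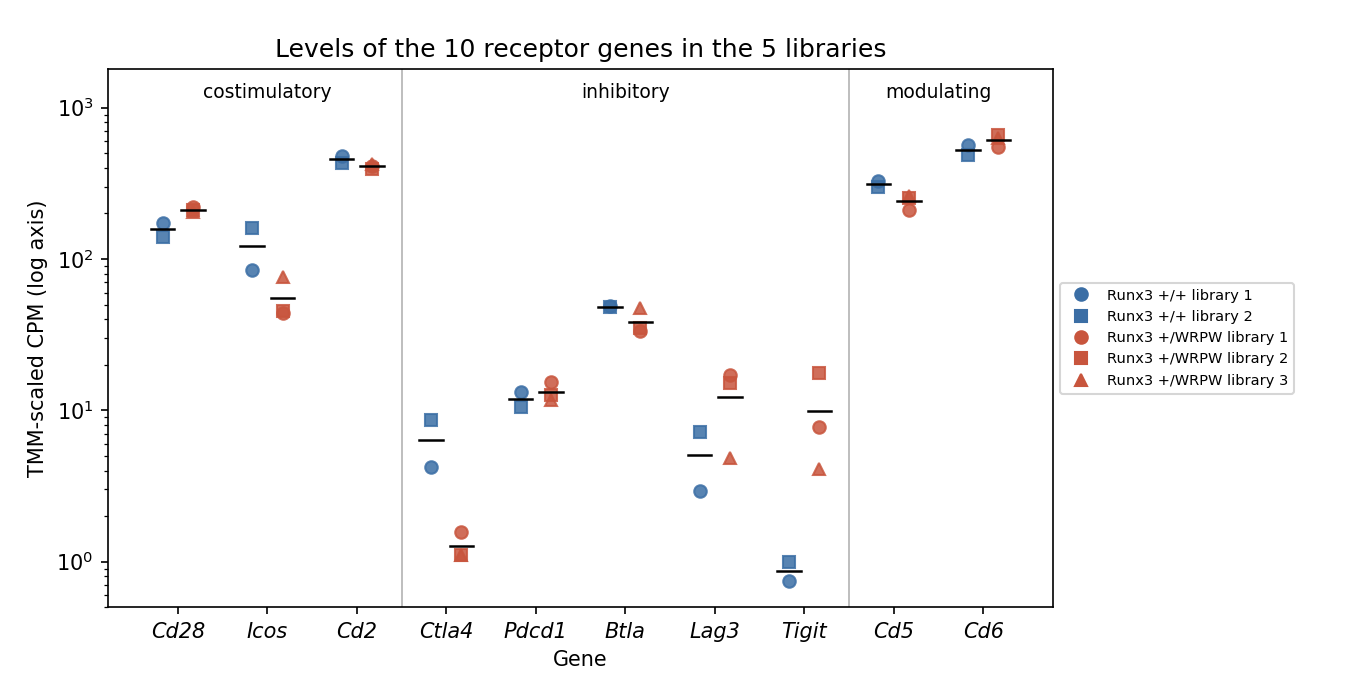
TMM-scaled CPM (log axis) of the 10 genes in each library, by class; points are libraries (blue Runx3 +/+, red Runx3 +/WRPW, shape for the library number) and bars are genotype means. Ctla4 and Tigit separate the genotypes most widely, while Cd2, Cd6 and Pdcd1 lie close together.

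Levels per kilobase of merged exon (CPM per kb, exons from GENCODE M21) set the order of the genes. In Runx3 +/+ the order was Cd2 (261 ± 20.6, SD, n = 2), Cd6 (65.6), Cd5 (63.3), Icos (35.5), Cd28 (25.6), Btla (14.2), Pdcd1 (6.16), Ctla4 (2.74), Lag3 (2.41) and Tigit (0.95). The ranges of the libraries overlapped between the neighbours Cd6 and Cd5, Icos and Cd28, and Ctla4 and Lag3. The costimulatory and modulating genes thus all stood above all of the inhibitory ones. In Runx3 +/WRPW, Cd28 (34.6 ± 1.13, SD, n = 3) stood above Icos (16.1), Tigit (10.7) stood in the seventh place, and Ctla4 (0.542) was last. There the ranges of Icos and Btla, Btla and Tigit, Tigit and Pdcd1, and Pdcd1 and Lag3 overlapped.

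Cd28 (chromosome 1, 60746388 to 60773359, plus strand) was at 173 and 141 CPM in Runx3 +/+ and at 219, 211 and 205 CPM in Runx3 +/WRPW. All 3 Runx3 +/WRPW libraries were above both wild-type libraries and lay close to each other. The fitted rise was 1.36-fold (log2 0.44 ± 0.10, SE, adjusted p = 0.0385). The call was lost in each of the 5 fits that left out 1 library, with adjusted p from 0.0601 (without Runx3 +/+ library 1) to 0.253 (without Runx3 +/+ library 2), and it was 0.0765 without Runx3 +/WRPW library 2. It was also lost with no low-count filter (adjusted p = 0.0894).

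Icos (chromosome 1, 60960773 to 61000322, plus strand), the inducible relative of Cd28, was at 84.0 and 159 CPM in Runx3 +/+ and at 43.7, 45.5 and 76.2 CPM in Runx3 +/WRPW. The genotypes did not overlap, but Runx3 +/WRPW library 3 lay near Runx3 +/+ library 1. The log2 difference of -1.14 ± 0.33 (SE) had an adjusted p = 0.0769, with a 95% interval of -1.95 to -0.33 before adjustment for the number of genes. Leaving out Runx3 +/+ library 2 gave -0.61, and leaving out Runx3 +/+ library 1 gave -1.56. Per kilobase, the ratio of Cd28 to Icos was 1.16 and 0.495 in Runx3 +/+ and 2.81, 2.60 and 1.51 in Runx3 +/WRPW, so that every Runx3 +/WRPW library had more Cd28 than Icos by a wider margin than either wild-type library; this ratio was not tested.

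Cd2 (chromosome 3, 101275908 to 101287939, minus strand), the most abundant of the 10 per kilobase, was at 480 and 429 CPM in Runx3 +/+ and at 413, 395 and 423 CPM in Runx3 +/WRPW. The highest Runx3 +/WRPW library lay just under the lower wild-type one. The log2 difference was -0.14 ± 0.07 (SE, adjusted p = 0.265, 95% interval -0.32 to 0.04), which bounds a fall at 0.800 of the wild-type level. Its ligand gene Cd48, which T cells also express, was at 99.3 and 103 CPM in Runx3 +/+ and fell to 61.2, 56.4 and 66.7 CPM in Runx3 +/WRPW (adjusted p = 0.00444).

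Ctla4 (chromosome 1, 60909025 to 60915832, plus strand) lies between Cd28 and Icos. It was at 4.2 and 8.59 CPM (90 and 215 counts) in Runx3 +/+ and at 1.58, 1.11 and 1.10 CPM (69, 18 and 24 counts) in Runx3 +/WRPW. All 3 Runx3 +/WRPW libraries were low, while the wild-type libraries differed from each other by 2.05-fold. The exact (Clopper-Pearson) 95% counting interval was 0.656 to 1.75 CPM for the 18 counts and 3.38 to 5.16 CPM for the 90 counts; these intervals hold for counting error alone, as the libraries carried no stated molecular identifiers and reads of 1 molecule may be counted more than once. The fitted fall was 4.98-fold (log2 -2.32 ± 0.39, SE, adjusted p = 0.0157). Without Runx3 +/+ library 1, Runx3 +/+ library 2 or Runx3 +/WRPW library 3 the log2 difference was -2.79, -1.73 and -2.22 (adjusted p = 0.0571, 0.282 and 0.0572), and without Runx3 +/WRPW library 2 the adjusted p was 0.037.

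Regulatory T cells carry much CTLA-4, and their markers were read beside it. Foxp3, the factor that specifies them, was at 5.09 and 9.63 CPM in Runx3 +/+ and at 1.19, 0.677 and 0.414 CPM in Runx3 +/WRPW (adjusted p = 0.0123). Cd4 was at 0.467 and 5.35 CPM (10 and 134 counts) and at 0.160, 0.369 and 0.0460 CPM, and did not pass the test (edgeR adjusted p = 0.0743). Runx3 +/+ library 2 was above library 1 in Ctla4 (2.05-fold), Icos (1.90-fold), Foxp3 (1.89-fold) and Cd4 (11.5-fold). Of the 8 genes on the list of CD4 or regulatory T cell markers, 7 were tested. Foxp3 was lower and Izumo1r, the folate receptor 4 gene, was higher. Beside Foxp3 and Cd4, Ikzf2, Gata3, Cd40lg and Il2ra (3.78 and 3.95 CPM) were higher in Runx3 +/+ library 2 than in library 1. Izumo1r (177 and 63.5 CPM) and Zbtb7b were lower there. Il2ra was at 6.44, 4.55 and 4.09 CPM in Runx3 +/WRPW, above both wild-type libraries. The summed level of that list was 418 to 439 CPM in Runx3 +/+ and 581 to 741 CPM in Runx3 +/WRPW, mostly Ikzf2 and Izumo1r, while Zbtb7b, the gene of ThPOK, a factor of the CD4 lineage, was at no more than 0.373 CPM in any library. The part of such cells in the difference of Ctla4 or Icos was not tested.

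**Figure D2:**
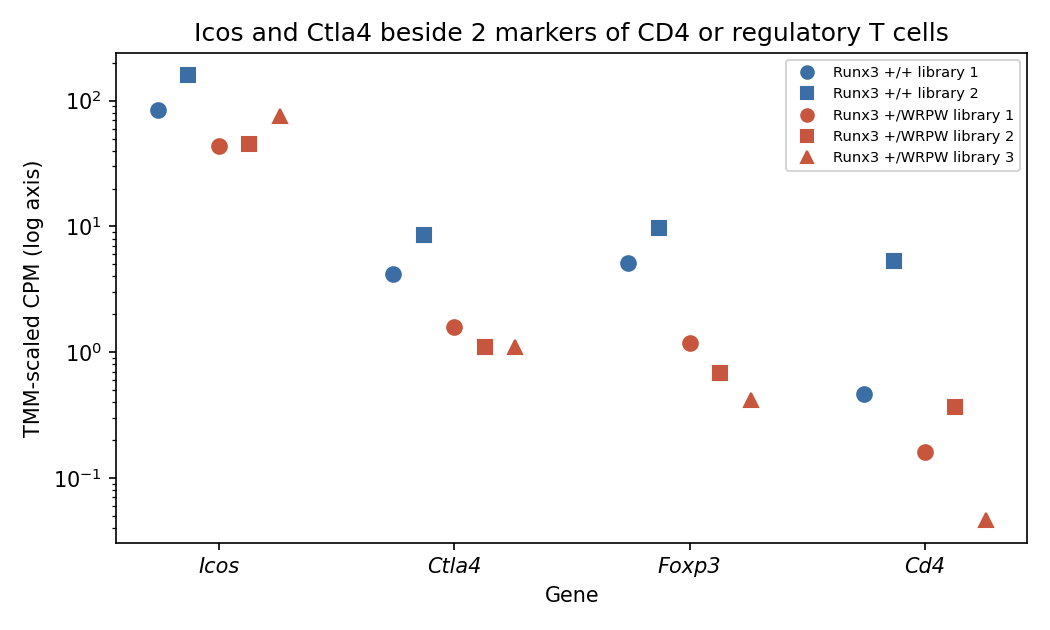
TMM-scaled CPM (log axis) of Icos, Ctla4, Foxp3 and Cd4 in each library (blue Runx3 +/+, red Runx3 +/WRPW, shape for the library number). For all 4 genes Runx3 +/+ library 2 is the highest and the 3 Runx3 +/WRPW libraries are below both wild-type libraries. The other genes of the marker list are not drawn and did not all share this order.

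Tigit (chromosome 16, 43626137 to 43665125, minus strand) was at 0.747 and 0.999 CPM (16 and 25 counts) in Runx3 +/+ and at 7.72, 17.7 and 4.09 CPM (338, 287 and 89 counts) in Runx3 +/WRPW. It was low in both wild-type libraries and higher in all 3 Runx3 +/WRPW libraries, which differed among themselves by 4.32-fold. The fitted rise was 11.1-fold (log2 3.48 ± 0.71, SE, adjusted p = 0.0292), with a 95% interval of 3.35- to 36.9-fold. Without Runx3 +/WRPW library 2 the log2 difference was 2.76 (adjusted p = 0.0211). The 7350 genes seen in that library alone were all below the 17.7 CPM of Tigit there, but they were chosen for being at 0 elsewhere. They therefore do not show how much of the extra signal of that library fell on Tigit. The call was lost without Runx3 +/+ library 1 (adjusted p = 0.235), Runx3 +/+ library 2 (0.256) or Runx3 +/WRPW library 1 (0.0603), and in limma-voom (0.151).

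The span that RefSeq gives Tigit overlaps that of Zbtb20, a zinc finger gene on the plus strand, over 8256 bases (chromosome 16, 43626137 to 43634392). The GENCODE exons of Tigit, within a gene span of 43648867 to 43664146, share no base with an exon of another gene. The sources used here give neither the annotation nor the strand setting of the counting, so reads of the shared stretch cannot be told apart. Zbtb20 was at 136 and 162 CPM in Runx3 +/+ and at 223, 202 and 245 CPM in Runx3 +/WRPW, a rise of 1.5-fold (adjusted p = 0.0237). Its highest library was Runx3 +/WRPW library 3, which was the lowest of that genotype in Tigit. Whether reads of Zbtb20 were counted as Tigit was not tested, and this order does not decide it.

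Lag3 (chromosome 6, 124904359 to 124912434, minus strand), an MHC class II receptor that lies next to Cd4, was at 2.94 and 7.23 CPM in Runx3 +/+ and at 17, 15.1 and 4.83 CPM in Runx3 +/WRPW. Libraries 1 and 2 of Runx3 +/WRPW were high, and library 3 fell between the wild-type ones. At a log2 difference of 1.28 ± 0.61 (SE), Lag3 missed the threshold (adjusted p = 0.229), and its 95% interval of -0.22 to 2.77 holds both a small fall and a 6.84-fold rise. Leaving out Runx3 +/+ library 1 gave 0.74, and leaving out the other wild-type library gave 2.07.

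Pdcd1 (chromosome 1, 94038305 to 94052553, minus strand), which encodes PD-1, was at 13.2 and 10.6 CPM in Runx3 +/+ and at 15.4, 12.7 and 11.6 CPM in Runx3 +/WRPW, so the genotypes overlapped. The log2 difference was 0.16 ± 0.17 (SE, adjusted p = 0.575, 95% interval -0.25 to 0.58). Btla (chromosome 16, 45223705 to 45252895, plus strand), the most abundant inhibitory gene of the wild-type cells per kilobase, was at 48.7 and 48.1 CPM in Runx3 +/+ and at 33.7, 34.8 and 47.3 CPM in Runx3 +/WRPW. Runx3 +/WRPW library 3 was at nearly the wild-type level. At a log2 difference of -0.32 ± 0.15 (SE), Btla missed the threshold (adjusted p = 0.221), but the difference was -0.49 with an adjusted p = 0.0316 without Runx3 +/WRPW library 3. That call rests on leaving out the library nearest to wild type.

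Cd5 and Cd6 lie 50313 bases apart on chromosome 19 (10718107 to 10739026 and 10789339 to 10830062, both on the minus strand) and had fitted differences of opposite sign, neither of which passed the test. Cd5 was at 325 and 299 CPM in Runx3 +/+ and at 209, 252 and 261 CPM in Runx3 +/WRPW. Every Runx3 +/WRPW library was below both wild-type ones, with a log2 difference of -0.37 ± 0.11 (SE, adjusted p = 0.0795, 95% interval -0.64 to -0.10); DESeq2 did call it (adjusted p = 0.0107). Cd6 was at 562 and 483 CPM and at 546, 657 and 633 CPM, which overlapped (log2 0.23 ± 0.11, SE, adjusted p = 0.226). Per kilobase, the ratio of Cd6 to Cd5 was 1.07 and 0.999 in Runx3 +/+ and 1.61, 1.61 and 1.5 in Runx3 +/WRPW. The groups do not overlap in this ratio, which was not tested.

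**Figure D3:**
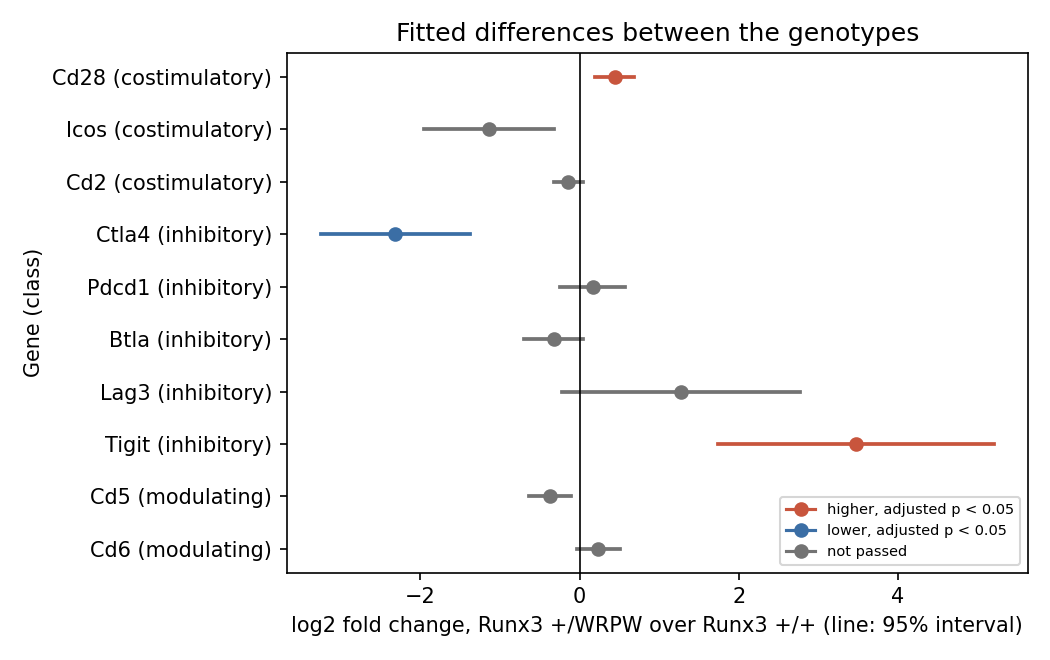
Log2 fold change of each gene, Runx3 +/WRPW over Runx3 +/+ (points), with its 95% interval (lines); red marks genes called higher and blue genes called lower at an adjusted p under 0.05. The intervals of Tigit and Lag3 are the widest, and those of Icos and Cd5 lie below 0 without an adjusted call.

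Costimulatory and inhibitory genes were then compared as classes, with no test, since the genes were chosen by name. The median log2 fold change was -0.14 for the costimulatory and 0.16 for the inhibitory genes, a difference of -0.31. In each library, the median log2 CPM of the costimulatory genes exceeded that of the inhibitory genes by 5.21 and 4.14 in Runx3 +/+ and by 3.79, 3.76 and 5.27 in Runx3 +/WRPW. The genotypes overlapped in this score, whose pooled SD between libraries was 0.83. The difference of -0.31 was smaller than that SD, but it comes from fitted fold changes, so the SD is not its own spread. In CPM per kb, the summed costimulatory level was 328 and 316 in Runx3 +/+ and 286, 274 and 299 in Runx3 +/WRPW, between 78% and 83.9% of it Cd2. The summed inhibitory level was 25.2 and 27.8 in Runx3 +/+ and 35.0, 43.7 and 27.2 in Runx3 +/WRPW, which overlapped.

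The inhibitory genes made up 7.13% and 8.10% of the summed level of both classes in Runx3 +/+ and 10.9%, 13.7% and 8.33% in Runx3 +/WRPW. The mean was 7.61% ± 0.688 (SD, n = 2) against 11% ± 2.70 (SD, n = 3), a difference of 3.38 percentage points (2.01 without Runx3 +/WRPW library 2). With Tigit left out, a choice made after seeing the data, the shares were 6.91% and 7.81% against 8.52%, 8.18% and 7.06%, which overlapped, and the difference was 0.562. The makeup of the inhibitory sum also differed. Btla was 56.9% and 50.8% of it in Runx3 +/+ and 28.3%, 23.4% and 51.3% in Runx3 +/WRPW, and Tigit was 3.23% and 3.90% against 24.0%, 44.0% and 16.4%.
Ctla4 was 7.16% and 13.2% against 1.93%, 1.09% and 1.74%. The ratio of Cd28 to Ctla4 per kilobase, a pair of receptors for the same ligands, was 15.7 and 6.23 in Runx3 +/+ and 52.9, 72.6 and 70.9 in Runx3 +/WRPW. These shares and ratios rest on the GENCODE exon lengths, which need not be those of the counting, and the comparison between libraries of a single ratio does not depend on them.

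**Figure D4:**
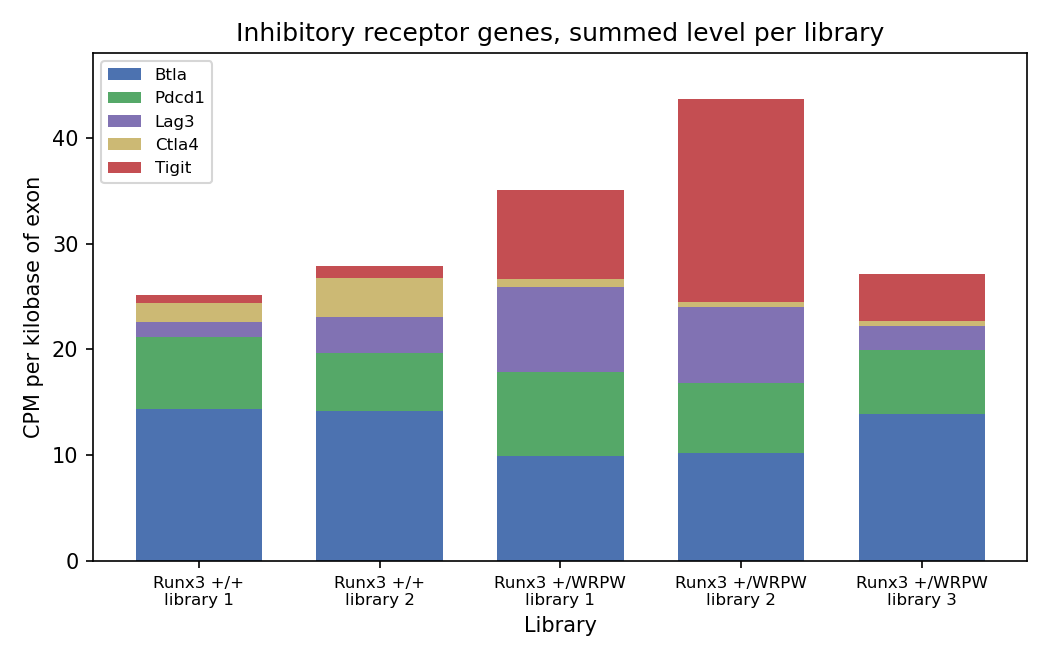
Stacked levels (CPM per kilobase of exon) of the 5 inhibitory genes in each library. The blue Btla part is the largest in 4 of the 5 libraries, and the red Tigit part is the largest in Runx3 +/WRPW library 2.

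Other genes listed with these classes moved in both directions. Of 12 genes tested on the list of further costimulatory receptors, 2 were higher, 4 lower and 6 did not pass. Their median log2 fold change was 0.05. The 2 higher genes were Crtam and Hcst (edgeR adjusted p = 0.0384), and Hcst encodes an adaptor, not a receptor. Over all genes tested, 6.24% were higher, 7.33% lower and the median was 0.02. Tnfrsf9, which encodes 4-1BB, fell from 37.0 ± 0.133 to 18.9 ± 2.09 CPM (adjusted p = 0.00483), and Ly9, a receptor of the SLAM family, from 183 ± 40.2 to 101 ± 4.98 CPM (adjusted p = 0.0132). Cd27, a receptor of the TNF receptor family, fell from 344 ± 8.54 to 269 ± 9.24 CPM (adjusted p = 0.0223). Crtam, a receptor of activated CD8 T cells and natural killer cells, rose from 32.5 ± 5.18 to 58.3 ± 3.56 CPM (adjusted p = 0.00866). The errors of these means are SD, with n = 2 for Runx3 +/+ and n = 3 for Runx3 +/WRPW, here and in the next paragraphs. With 1 library left out, 2 of the list were called without Runx3 +/+ library 1, 0 without Runx3 +/+ library 2 (edgeR, 6 with an unadjusted p under 0.05) and 3 without Runx3 +/WRPW library 1.

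Of 13 genes tested on the list of further inhibitory receptors, 2 were higher, 2 lower and 9 did not pass (median 0.12). That list also holds an enzyme gene, Entpd1, and a ligand gene, Cd200. Entpd1, which encodes the ectonucleotidase CD39, was at 3.22 and 1.60 CPM in Runx3 +/+ and at 26.6, 21.6 and 10.9 CPM in Runx3 +/WRPW, an 8.31-fold rise (adjusted p = 0.0141). As with Tigit, all Runx3 +/WRPW libraries were above the wild-type ones and library 3 was the lowest of them. Cd101 rose from 11.1 ± 0.488 to 20.3 ± 4.49 CPM (adjusted p = 0.0426). Cd160, which like BTLA binds HVEM, fell from 19.0 ± 10.4 to 3.59 ± 0.780 CPM (adjusted p = 0.0116), and Cd200r1, the receptor of CD200, from 5.14 ± 1.90 to 2.07 ± 0.194 CPM (adjusted p = 0.0439). With 1 library left out, 0 of the list were called without Runx3 +/+ library 1 (edgeR, 3 with an unadjusted p under 0.05), 1 when Runx3 +/+ library 2 was left out, and 2 when either of Runx3 +/WRPW libraries 1 and 2 was. Of the 12 ligand genes 9 passed the filter, and Cd48 was the gene called, as lower (median 0.11). No ligand was called lower when either Runx3 +/+ library was left out: without library 1 the list had 1 gene called higher, and without library 2 it had 0 called (edgeR, 2 with an unadjusted p under 0.05).

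Among genes of costimulatory signalling, 1 of 20 tested was higher, 2 were lower and 17 did not pass (median -0.07). Pik3r1, a regulatory subunit of the phosphoinositide 3-kinase that CD28 and ICOS recruit, rose from 245 ± 26.4 to 411 ± 24.1 CPM (adjusted p = 0.00706). Trat1, an adaptor of the T cell receptor complex, fell from 73.9 ± 22.5 to 21.6 ± 7.53 CPM (adjusted p = 0.0168), and Cd2ap, an adaptor that binds CD2, from 80.2 ± 5.23 to 59.9 ± 6.79 CPM (adjusted p = 0.0486). Among genes of inhibitory signalling, 2 of 20 were higher, 2 lower and 16 did not pass (median 0.01). Ptpn6, the phosphatase SHP-1 of several inhibitory receptors, rose from 618 ± 14.9 to 775 ± 49.0 CPM (adjusted p = 0.0381), and Lrba, which keeps CTLA-4 from being degraded, from 107 ± 2.84 to 146 ± 10.8 CPM (adjusted p = 0.0153). Dok2, an adaptor that damps receptor signalling, fell from 137 ± 5.27 to 81.8 ± 2.59 CPM (adjusted p = 0.00195), and Dgka, a diacylglycerol kinase that does so too, from 1453 ± 179 to 932 ± 25.8 CPM (adjusted p = 0.00856). Without Runx3 +/+ library 1, Runx3 +/+ library 2 and Runx3 +/WRPW library 1, the genes called numbered 1, 0 (edgeR, 5 with an unadjusted p under 0.05) and 2 in the costimulatory and 3, 1 and 2 in the inhibitory signalling list.

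Of 19 tested transcription factor genes known to act on inhibitory receptor genes, 7 were lower, 1 was higher and 11 did not pass (median -0.36), beside 7.33% lower and 6.24% higher of all genes tested. Irf4 (24.3 ± 2.93 to 9.76 ± 0.535 CPM, adjusted p = 0.00248), Nr4a1 (124 ± 34.7 to 49.4 ± 1.82 CPM, adjusted p = 0.00586) and Foxo1 (399 ± 18.3 to 249 ± 17.9 CPM, adjusted p = 0.0054) fell, as did Nr4a3, Egr2, Foxp3 and Runx1. Nr4a1, Nr4a3 and Egr2 are induced by T cell receptor signals. Eomes, which encodes the T-box protein eomesodermin and acts in effector and memory cells, rose from 11.1 ± 1.70 to 104 ± 38.5 CPM (adjusted p = 0.00402). The number called was 10 without Runx3 +/WRPW library 2, and 3 and 2 without Runx3 +/+ libraries 1 and 2.

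Genes next to the receptor genes were read as a check on their loci. Within 100000 bases of the 10 genes lie 46 other counted genes, of which 26 were tested. Of these, 2 were higher and 3 lower, beside 6.24% higher and 7.33% lower of all genes tested. With so few genes these counts do not set the neighbours apart. Zbtb20 and Pianp (near Lag3, 7.76 ± 0.121 to 19.5 ± 5.98 CPM, adjusted p = 0.0341) were higher. Atg3 (near Btla, 65.9 ± 3.62 to 54.5 ± 1.12 CPM, adjusted p = 0.0424), Cdca3, a cell division gene near Lag3 (11.5 ± 2.0 to 2.49 ± 0.622 CPM, adjusted p = 0.00494), and the predicted gene Gm32900 near Cd2 were lower. In the cluster of Cd28, Ctla4 and Icos, the log2 fold changes were thus 0.44, -2.32 and -1.14 in that order along the chromosome.

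For each called gene the 2 genes with the most similar pattern were sought among 10174 others, by the Euclidean distance of the mean-centred log2 CPM over the 5 libraries. They were Mnda (distance 0.0212) and Ccdc191 (0.0483) for Cd28, neither of which passed the test itself (adjusted p = 0.0829 and 0.0515). For Ctla4 they were Id3 (0.226), an inhibitor of E proteins, and Aff3 (0.322), with log2 fold changes of -2.03 and -2.11. For Tigit they were Ppm1j (0.738), a protein phosphatase gene, and Eomes (0.846), with log2 fold changes of 3.31 and 3.23. Like Tigit, Eomes was highest in Runx3 +/WRPW library 2 (147 CPM) and lowest of that genotype in library 3 (73.9 CPM). That likeness follows from the search, which picked Eomes by its pattern over the same 5 libraries, and is no separate result.

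Markers of other cells were low. The summed level of the 5 B cell markers was 9.71 to 9.75 CPM in Runx3 +/+ and 3.03 to 5.29 CPM in Runx3 +/WRPW. The 8 myeloid or dendritic markers summed to 15.6 to 15.8 and 10.8 to 33.4 CPM, with Cd74 at 4.80 to 31.1 CPM and Lyz2 at no more than 0.280 CPM, and the 5 innate lymphoid or natural killer markers to at most 1.49 and 4.37 CPM. The double-positive thymocyte markers summed to 49.6 to 49.9 CPM against 31.3 to 44.0 CPM. The largest part of that sum was Cd1d1 (26.5 to 31.7 CPM), which did not pass the test. Of the 6 markers tested, Dntt, their terminal transferase, was lower (edgeR adjusted p = 0.028), and 5 did not pass. Their median log2 fold change was 0.03, and 7.33% of all genes tested were lower. Runx3 +/WRPW library 2 had the highest sums of the epithelial (13.6 CPM), gamma-delta T cell (6.03 CPM) and innate lymphoid lists. The erythroid list was at no more than 0.246 CPM, with Hba-a1 at 0 counts in all 5 libraries, which allows up to 0.0685 to 0.185 CPM (3 counts) in each.

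**Figure D5:**
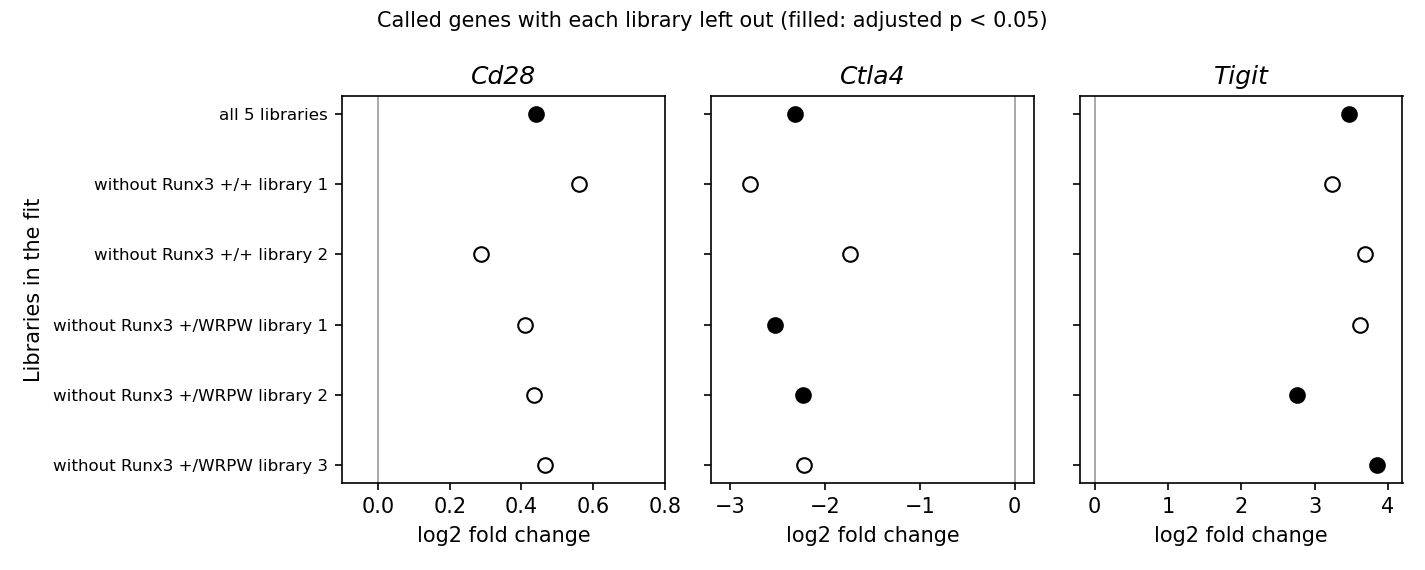
Log2 fold change (Runx3 +/WRPW over Runx3 +/+) of Cd28, Ctla4 and Tigit with all 5 libraries and with each left out; filled points have an adjusted p under 0.05. The sign is the same in all fits, and all 3 calls are lost when either Runx3 +/+ library is left out.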

How the data were processed

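Bulk RNA-seq of FACS-sorted mature CD8 single-positive thymocytes was analysed in 2 Runx3 +/+ and 3 Runx3 +/WRPW libraries, grouped by the genotype label. The authors deposited raw counts of reads per gene symbol, without normalization; the build was mm10 and the tools were HISAT2 2.2.1, featureCounts 2.0.8, cutadapt 4.0 and edgeR 3.36.0, per the submitters' processing notes. Annotation, strand setting and the handling of multi-mapped reads: not given in the sources used here. For 2 files the column header does not match the sample record (Runx3 +/+ library 2 and Runx3 +/WRPW library 2); the record was followed. No pair of libraries agreed within sampling noise (chi-square per gene of at least 15.3).

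The genotypes were compared with edgeR 4.0.16 in R 4.3.3 (TMM, filterByExpr with a minimum count of 10, glmQLFit, glmQLFTest), with Benjamini-Hochberg adjustment over all 13666 genes and a threshold of 0.05; the fit was tested on simulated data. The SE is the absolute log2 fold change over the square root of F. CPM used the library total times the TMM factor, and class medians per library log2(CPM + 0.5). Library totals were 15715242 to 43758550 counts. As alternatives, the fit was repeated with DESeq2 1.42.0, with voom in limma 3.58.1, with RLE or upper-quartile factors, no or a stricter low-count filter, robust estimates, a replicate block and each library left out in turn. Where 1 Runx3 +/+ library remained, it was assumed to vary like the other genotype. RefSeq (GRCm38.p6) matched 32501 of 35976 symbols, and GENCODE M21 gave exon lengths.

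The genes, classes and lists were chosen with earlier results of these data known. Named genes are the 10 receptors, Runx3, up to 4 called genes per list by smallest p, markers, called neighbours and the closest patterns. Nr4a3, Egr2, Runx1, Ikzf2, Izumo1r, Il2ra, Gata3, Cd40lg, Cd8b1, Cd3d, Cd3e, Cd74, Cd1d1, Hcst and Cd200 were named after their values were seen. Of the lists, Trac, Trbc2, Trdc and Carmil2 were not analysed here.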

Additional observations from a re-analysis of the deposited data

How the results depend on the processing

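All 10 receptor genes kept the sign of their difference in all 13 alternative fits. Of all genes, 1855 were called in the reported fit, 1079 with no low-count filter (28583 genes tested, with the median log2 fold change of all genes at 0.70), 2705 with DESeq2, and 277 to 1431 with 1 library left out. Of the 10 receptors, 3 were called in the reported fit and 0 to 2 with 1 library left out. The count was 0 without Runx3 +/+ library 1 or 2 in edgeR, where 4 had an unadjusted p under 0.05 each time, and 1 without Runx3 +/WRPW library 1; these fits leave fewer samples, and other tools were not run on them. With the replicate number as a block (replicate block), 754 genes were called and 2 receptors, Tigit (adjusted p = 0.0124) and Icos (0.0406), while Cd28 (0.0771) and Ctla4 (0.0968) were not. The labels tie the numbers to no shared animal or batch. Deviations of same-numbered libraries from their genotype means had correlations of -0.0331 and 0.0113 across genes. With 2 Runx3 +/+ libraries both values rest on the same wild-type difference, and library 3 has no partner. They therefore cannot decide whether same-numbered libraries share an animal or batch.

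The costimulatory minus inhibitory difference of -0.31 ranged from -0.18 to -0.41 with 1 library left out and was -0.74 with class means, for which no spread between libraries was computed. The inhibitory share difference of 3.38 percentage points was 0.562 with Tigit left out. Calls with 1 library left out, an alternative added after seeing the data, numbered 0 to 7 for further costimulatory receptors, 0 to 3 for further inhibitory receptors, 0 to 1 for ligands, 0 to 3 for costimulatory signalling, 1 to 4 for inhibitory signalling and 2 to 10 for transcription factors, against 6, 4, 1, 3, 4 and 8. The counts of 0 (edgeR) came without Runx3 +/+ library 2, where 6, 2 and 5 genes of the costimulatory receptor, ligand and costimulatory signalling lists had an unadjusted p under 0.05, and for inhibitory receptors without Runx3 +/+ library 1, where 3 had. Ctla4 and Tigit rest on 16 to 338 counts per library, and their counting intervals were narrower than the differences between libraries 1 and 2 of Runx3 +/+ (Ctla4) and of Runx3 +/WRPW (Tigit).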

Other observations

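Among the Runx3 +/WRPW libraries, library 3 lay nearest to the wild-type mean in log2 CPM for 8 of the 10 receptor genes (Cd28, Icos, Cd2, Pdcd1, Btla, Lag3, Tigit and Cd5), and library 1 for the other 2 (Ctla4 and Cd6). Over all genes tested, library 3 was nearest for 36.5%, library 1 for 36.3% and library 2 for 27.1%. Between the wild-type libraries, Ctla4, Icos and Lag3 were higher in library 2 by 2.05-, 1.90- and 2.46-fold, and 7.88% of all genes tested were higher there by at least 1.5-fold. The other 7 receptors had ratios of library 2 to library 1 from 0.801 to 1.34.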
